A study of Oryza sativa with 6 samples.

Results

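BGIOSGA033924 and BGIOSGA033927 are a pair of rice genes whose deposited descriptions name leucine-rich repeats, and which were far more abundant in cadmium-treated roots that also received Fo10. These 2 of the 42031 features in the deposited table were chosen by the size of that difference in TPM between the groups. The difference itself is therefore given as a description, with no test. The description of BGIOSGA033924 names a precursor of an extracellular glycoprotein with leucine-rich repeats, from Sorghum bicolor, and that of BGIOSGA033927 the LRR receptor kinase BAK1; neither cites a database.

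The study measured polyadenylated RNA in roots of wild-type rice (Oryza sativa) from a greenhouse. The Fo+Cd group is 3 libraries of roots under 10 µM cadmium with 0.5% Fo10, and the Cd group is 3 libraries of roots under 10 µM cadmium alone. Both groups thus carry cadmium, and no library without it is among the samples. What Fo10 is goes unstated in the labels, as does whether replicates are separate plants. The p-values then reflect only how much these libraries vary, which may be technical.

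Leucine-rich repeats are short protein modules that stack into a curved surface for binding other proteins or small ligands. Plants use them outside the cell in receptor kinases and in secreted or membrane-anchored proteins without a kinase, and inside the cell in NB-LRR resistance proteins. BAK1 belongs to the SERK family of small receptor kinases. In Arabidopsis it joins the brassinosteroid receptor BRI1 and immune receptors such as FLS2 as a co-receptor, and signalling then runs through receptor-like cytoplasmic kinases, respiratory burst oxidases and mitogen-activated protein kinase cascades.

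Values are the authors' TPM (a relative transcript abundance scaled by transcript length and library), which add up to 963281 to 966767 per library over the listed features. Between 20861 and 21126 features reached 1 TPM in a library, and the depth behind the values is unknown. In bulk tissue, a change in the number of cells of a type and a change of RNA per cell cannot be told apart. Markers of root tissue were present in every library: the silicon efflux transporter (BGIOSGA011605) was at 729.55 to 1120.34 TPM in Fo+Cd and 641.92 to 836.66 TPM in Cd, and Casparian strip membrane protein 1 (BGIOSGA017380) at 137.4 to 149.01 TPM in Fo+Cd and 159.4 to 182.39 TPM in Cd. The iron-phytosiderophore transporter (BGIOSGA005930) was at 155.19 to 196.05 TPM in Fo+Cd and 83.78 to 127.95 TPM in Cd, and heavy metal transporter 3 (BGIOSGA024568) at 6.47 to 8.92 TPM in Fo+Cd and 7.61 to 10.37 TPM in Cd. The 27 photosynthesis transcripts taken as shoot markers summed to 23.6 to 33.2 TPM in Fo+Cd and 24.4 to 26.9 TPM in Cd, with 10 to 12 of them above 0 in Fo+Cd and 14 to 15 in Cd. Of the root markers chosen, OsLsi1 and OsNRAMP5 were not found among the descriptions. The part of either marker group in the results was not tested.

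BGIOSGA033924 had 138.82, 158.95 and 132.18 TPM in Fo+Cd replicates 1, 2 and 3, against 1.07, 0.13 and 2.03 TPM in Cd replicates 1, 2 and 3. All Fo+Cd libraries were high and close together, while the Cd libraries were near the bottom of the scale and spread widely. The group means were 143 ± 13.9 TPM in Fo+Cd and 1.08 ± 0.95 TPM in Cd (SD, n = 3 each). The lowest Fo+Cd library was 65.1 times the highest Cd library. By abundance the gene stood between position 1033 and 1305 of all features in the Fo+Cd libraries and between 19199 and 24242 in the Cd libraries.

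BGIOSGA033927 had 372.74, 391.79 and 338.69 TPM in Fo+Cd replicates 1, 2 and 3, against 10.07, 4.16 and 10.92 TPM in Cd replicates 1, 2 and 3. Here too the groups did not overlap, as was so, with Fo+Cd higher, for 11.3% of all tested features, but the transcript was measurable at several TPM in every Cd library. The means were 368 ± 26.9 TPM in Fo+Cd and 8.38 ± 3.68 TPM in Cd (SD, n = 3 each). The lowest Fo+Cd library was 31.0 times the highest Cd library. The gene ranked 339 to 433 by abundance in Fo+Cd and 12086 to 16395 in Cd.

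**Figure D1:**
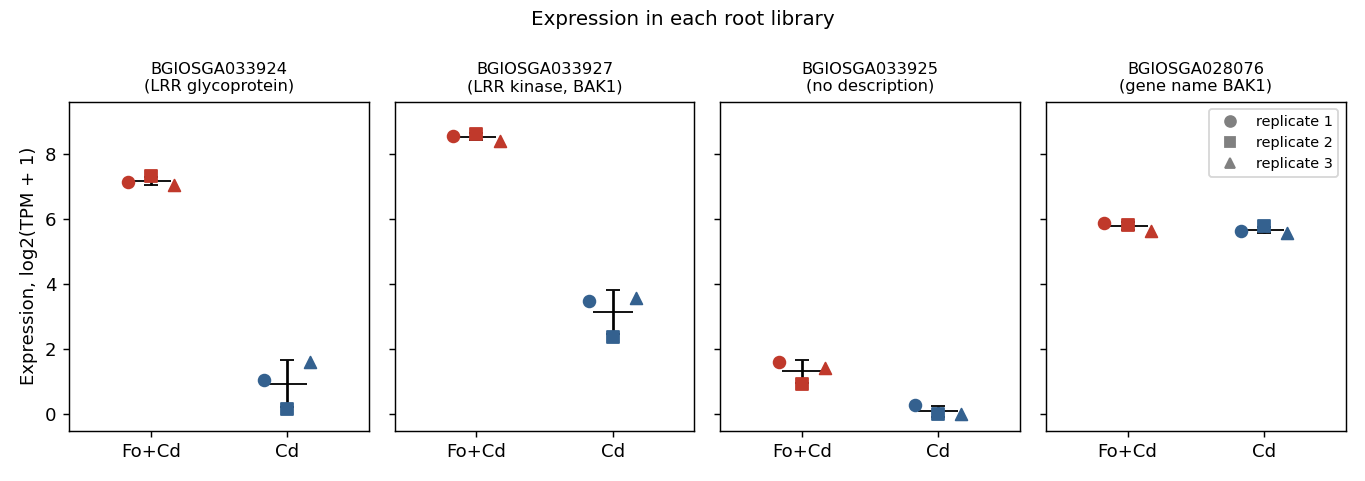
Expression of the induced pair, of the gene numbered between them and of the gene named BAK1, as log2(TPM + 1); each point is a library, the wide bar the group mean and the whisker the SD (n = 3 each). BGIOSGA033924 and BGIOSGA033927 are near 7.17 and 8.52 on average in Fo+Cd and near 0.94 and 3.14 in Cd, while the libraries of BGIOSGA028076 overlap between the groups.

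On the log2(TPM + 1) scale the difference of Fo+Cd minus Cd was 6.23 for BGIOSGA033924 and 5.39 for BGIOSGA033927. They held ranks 2 and 4 by this difference among the 21166 features tested, those at 1 TPM or above in 3 or more libraries. Rank 1 was a 5.8S ribosomal RNA feature (log2 difference 9.07), and rank 3 an isoflavone reductase homolog (BGIOSGA002047, 6.06). Both genes passed the filter; BGIOSGA033924 reached 1 TPM in 2 of the 3 Cd libraries. Leaving out each library in turn gave 5.84 to 6.56 for BGIOSGA033924 and 5.0 to 5.61 for BGIOSGA033927, each lowest without Cd replicate 2 and highest without Cd replicate 3.

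The relative spread lay in the Cd libraries. The coefficient of variation was 9.73% in Fo+Cd and 88.2% in Cd for BGIOSGA033924, and 7.32% in Fo+Cd and 43.9% in Cd for BGIOSGA033927. For BGIOSGA033924 the highest library held 1.20 times the lowest in Fo+Cd and 15.6 times in Cd, and for BGIOSGA033927 1.16 times in Fo+Cd and 2.62 times in Cd.

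The pair shared the order of the libraries within both groups. In Fo+Cd both were highest in replicate 2, then 1, then 3, and in Cd both were highest in replicate 3, then 1, then 2. Of 21164 other tested features, 409 (1.93%) had the same order in both groups, as did 15 of 363 other features called higher (4.13%). The Cd order alone was found in 17.6% of all other tested features and in 17.6% of those called higher, and the Fo+Cd order alone in 13.2% of all other tested features and 22.9% of those called higher.

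The balance within the pair differed between the groups. TPM is scaled by length, so levels can be set side by side. BGIOSGA033924 stood at 37.2%, 40.6% and 39.0% of the level of BGIOSGA033927 in Fo+Cd replicates 1, 2 and 3, against 10.6%, 3.12% and 18.6% in Cd replicates 1, 2 and 3. The share averaged 38.9% ± 1.70 in Fo+Cd and 10.8% ± 7.74 in Cd (SD, n = 3 each), without overlap. The Cd shares rest on values of BGIOSGA033924 near or below 2 TPM. Both together held 0.0487% to 0.0571% of a library's TPM in Fo+Cd and 0.000444% to 0.00134% in Cd.

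The identifiers of the pair are 3 apart, and the table lists BGIOSGA033925 and BGIOSGA033926 between them. The identifier is a name: the table gives no coordinates, and neither identifier is in the RefSeq gene table used here (rice assembly ASM3414082v1), so position and sequence were not analysed here. BGIOSGA033925, which has no description, was singled out after its values were seen. It had 2.08, 0.9 and 1.69 TPM in Fo+Cd replicates 1, 2 and 3, against 0.21, 0 and 0 TPM in Cd replicates 1, 2 and 3. The groups did not overlap, as was so, with Fo+Cd higher, for 11.3% of all tested features. The gene missed the filter of 1 TPM in 3 libraries. Without that filter its log2 difference was 1.23 (SE 0.206, limma adjusted p = 0.0522). Its level was below those of both induced genes in every library, and whether reads are shared among these gene models was not tested. BGIOSGA033926 had at most 0.05 TPM in any library.

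No tested gene of nearby number was called. Of 32 features with identifiers within 15 of either gene, 9 were tested and limma called 0 (1 with unadjusted p under 0.05), against 2.45% of all tested features called in either direction. With so few genes tested, this count does not set them apart from other genes. The 9 had log2 differences of -0.60 to 0.13. The largest was that of BGIOSGA033937, at 9.17 ± 1.39 TPM in Fo+Cd and 14.3 ± 0.688 TPM in Cd (SD, n = 3 each; adjusted p = 0.0665); without Fo+Cd replicate 1 it passed (adjusted p = 0.046). SWEET14 (BGIOSGA033930), a sucrose exporter of the SWEET family that bacterial blight strains are known to switch on in rice leaves, was at 24.9 ± 3.84 TPM in Fo+Cd and 22.5 ± 2.38 TPM in Cd (adjusted p = 0.683). BGIOSGA033915 and BGIOSGA033916, which have no description, had differences of 0.10 each, and BGIOSGA033919, BGIOSGA033920, BGIOSGA033921, BGIOSGA033923 and BGIOSGA033940 had -0.33, -0.31, -0.10, -0.29 and -0.05 (adjusted p = 0.334 to 0.926). A further 15 of the 32 were listed at 0 in all 6 libraries.

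**Figure D2:**
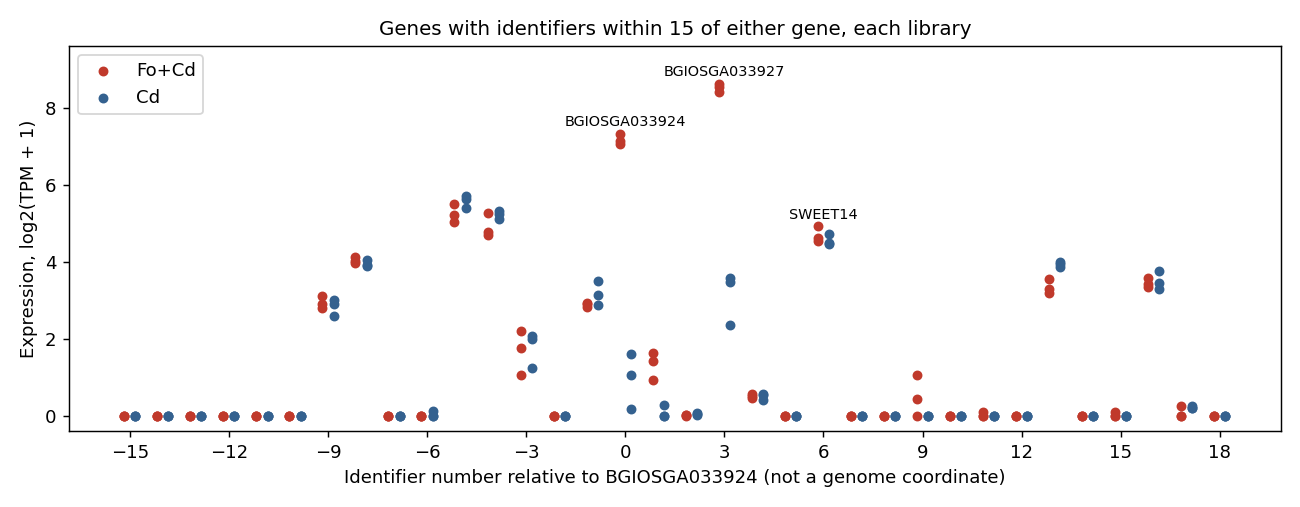
Expression of the features numbered within 15 of either gene, as log2(TPM + 1), against identifier number relative to BGIOSGA033924; each point is a library of Fo+Cd (left of the tick) or Cd (right of it). The induced pair stands at offsets 0 and 3, and the 9 tested neighbours have log2 differences of -0.60 to 0.13.

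A second gene carries the same description as BGIOSGA033927 and was not called. BGIOSGA028076 has the gene name BAK1 and a database-sourced description as LRR receptor kinase BAK1; RefSeq lists BAK1 and OsSERK1 as synonyms of 1 rice gene. It had 58.26, 55.2 and 48.68 TPM in Fo+Cd replicates 1, 2 and 3, against 48.25, 53.82 and 46.84 TPM in Cd replicates 1, 2 and 3, with overlapping groups. Its log2 change was 0.12 (SE 0.10, 95% interval -0.12 to 0.36, limma adjusted p = 0.62). It was the 1 other gene found by the BAK1 and SERK patterns. BGIOSGA033927 was 6.40, 7.10 and 6.96 times as abundant as BGIOSGA028076 in Fo+Cd replicates 1, 2 and 3, and 0.209, 0.0773 and 0.233 times as abundant in Cd replicates 1, 2 and 3. The gene of the pair thus stood below the gene named BAK1 in every Cd library and above it in every Fo+Cd library. Related kinases of this kind have similar sequences, and whether the authors' counting could divide reads among them was not tested.

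Genes described as leucine-rich repeat proteins, the pair included, number 26. The 16550 tested gene models without a description could not enter this list. Ranks within it thus do not place the pair among all rice genes of this kind. Among the 26, BGIOSGA033927 had the highest mean TPM in Fo+Cd and the 10th in Cd, and BGIOSGA033924 the 3rd and 19th. The gene between them in Fo+Cd was LRR1 (BGIOSGA004654, leucine-rich repeat protein 1), with 350.02, 366.35 and 324.9 TPM in Fo+Cd replicates 1, 2 and 3 and 355.86, 327.34 and 360.83 TPM in Cd replicates 1, 2 and 3. The Fo+Cd ranges of LRR1 and BGIOSGA033927 overlapped, but within each Fo+Cd library BGIOSGA033927 was the higher. BGIOSGA033924 lay below both in every Fo+Cd library. The next in Fo+Cd was BGIOSGA018414 (49.0, 84.24 and 63.08 TPM in replicates 1, 2 and 3), below BGIOSGA033924 in every Fo+Cd library.

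**Figure D3:**
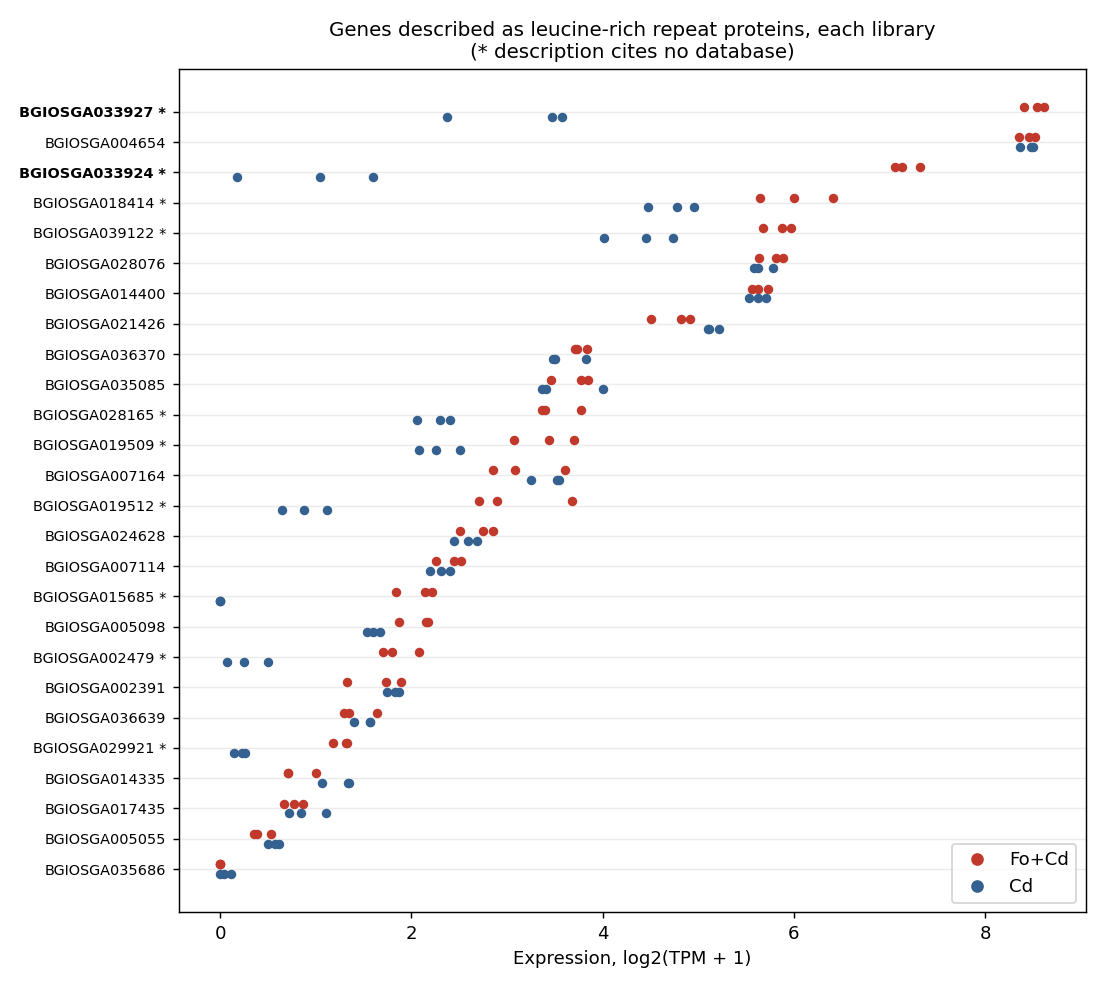
Expression of the 26 genes described as leucine-rich repeat proteins, as log2(TPM + 1), with each library a point (Fo+Cd above Cd within a row), ordered by mean Fo+Cd level; bold marks the induced pair and the asterisk a description that cites no database. The pair, chosen for the size of this difference, shows the widest separation of the groups. The 13 tested genes without an asterisk have log2 changes of -0.44 to 0.47.

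The other 24 leucine-rich repeat genes were divided by the kind of description they carry. Of 21 tested, 8 rose and 0 fell in limma at an adjusted p under 0.05, against 1.72% of all tested features called higher. The median log2 change was 0.13, against 0.003 over all tested features. All 8 have a description that cites no database, like the induced pair, and the 13 with a sourced description held 0 calls (2 with unadjusted p under 0.05). Across the table, 190 of 226 tested gene models so described were called higher and 16 lower, against 55 and 39 of 4288 with a sourced description. The median log2 change was 1.44 over those 226 and 0.02 over the 4288. Within the list it was 1.36 without a source and 0.02 with one. The kind of description thus moved with the outcome, and its part in the counts and medians was not tested. Of the 8, 3 met the filter through the Fo+Cd libraries alone, all Cd libraries being under 1 TPM, so their entry favoured a rise; of the 18 genes that met it with libraries of both groups, 5 rose. Over the whole table, 65 of the 365 features called higher met the filter through Fo+Cd alone. The count of 8 became 5, 2 and 1 without Fo+Cd replicates 1, 2 and 3, and 5, 7 and 5 without Cd replicates 1, 2 and 3.

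The 8 risers are all described as probable LRR receptor-like serine/threonine-protein kinases, with log2 changes of 1.06 to 2.21. BGIOSGA015685 had 3.41, 2.59 and 3.64 TPM in Fo+Cd replicates 1, 2 and 3 and was listed at 0 in all Cd libraries (adjusted p = 0.0019). It is one of the 3 that met the filter through Fo+Cd alone, as are BGIOSGA002479 and BGIOSGA029921, and was not tested when any Fo+Cd library was left out. BGIOSGA019512 was at 7.92 ± 3.40 TPM in Fo+Cd and 0.86 ± 0.30 TPM in Cd (adjusted p = 0.00966). BGIOSGA039122 was at 56.5 ± 5.88 TPM in Fo+Cd and 20.5 ± 5.20 TPM in Cd (adjusted p = 0.0105). BGIOSGA018414 was at 65.4 ± 17.7 TPM in Fo+Cd and 25.8 ± 4.35 TPM in Cd (adjusted p = 0.0299; SD, n = 3 in each group for these 3 genes). BGIOSGA028165 (log2 change 1.26) and BGIOSGA002479 (1.58) had an adjusted p of 0.0111 each. The call of BGIOSGA018414 was lost in every leave-one-out fit except that without Fo+Cd replicate 1, that of BGIOSGA039122 without Fo+Cd replicate 2 or 3, and that of BGIOSGA028165 without Fo+Cd replicate 3 (highest adjusted p = 0.118, 0.0586 and 0.0507). None of the 8 reached the log2 difference of either induced gene, but the induced pair was chosen for the size of its difference.

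Among the 13 genes with a sourced description, log2 changes ran from -0.44 to 0.47. SOBIR1 (BGIOSGA021426), named here after its values were seen, is in Arabidopsis the adaptor kinase for receptor proteins that lack a kinase. It had 21.78, 27.26 and 29.03 TPM in Fo+Cd replicates 1, 2 and 3, against 33.25, 33.61 and 36.31 TPM in Cd replicates 1, 2 and 3. The groups did not overlap, as in 21.3% of all tested features, and its log2 change of -0.40 did not pass (adjusted p = 0.172).

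Genes matched by the pattern for receptor-like kinases divided the same way. The pattern missed the 8 leucine-rich repeat risers above, whose descriptions set its words too far apart. The list shares 8 other genes with the leucine-rich repeat list, all with a sourced description. Of 35 tested, 18 rose and 0 fell, and all 18 are described without a source; of the 17 with a sourced description 0 were called (2 with unadjusted p under 0.05). The shares to read this against are 1.72% of all tested features and 190 of the 226 tested gene models described without a source. The filter was met through Fo+Cd alone by 9 of the 18, and of the 26 genes that met it with both groups 9 rose. The median log2 change of the list was 0.90, with 1.21 for genes without a source and -0.07 for those with one. Over all 226 unsourced gene models the median was 1.44. BGIOSGA006167 is described as wall-associated receptor kinase galacturonan-binding, after a family that binds pectin in the cell wall. It rose to 708 ± 20.6 TPM in Fo+Cd, against 235 ± 42.7 TPM in Cd (SD, n = 3 each, adjusted p = 0.00153). Another gene so described (BGIOSGA023804) rose by 0.92, and neither description states a kinase domain. The lectin-domain kinases BGIOSGA024880 and BGIOSGA024032 rose by 1.83 and 1.07 (BGIOSGA024880 having met the filter through Fo+Cd alone), the cysteine-rich kinase BGIOSGA024150 by 1.48 and a ZmPK1-type kinase (BGIOSGA034733) by 1.43. The count of 18 became 5, 5 and 4 without Fo+Cd replicates 1, 2 and 3, and 10, 14 and 8 without Cd replicates 1, 2 and 3; the call of BGIOSGA023804 was lost without Fo+Cd replicate 3 (adjusted p = 0.0503).

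Of 14 tested genes found as NB-LRR or other disease resistance proteins, 10 rose and 0 fell, and again all 10 lack a source; of the 4 others 0 were called (1 with unadjusted p under 0.05). Beside this stand the same shares of 1.72% of all tested features and 190 of 226 unsourced gene models called higher. The filter was met through Fo+Cd alone by 4 of the 10, and of the 10 genes that met it with both groups 6 rose. The median log2 change of the list was 1.24, with 1.32 for genes without a source, against 1.44 over all unsourced gene models. Among these intracellular immune receptors, BGIOSGA037204, described as RGA5, had 14.44, 12.89 and 13.46 TPM in Fo+Cd replicates 1, 2 and 3, against 1.04, 0.52 and 0.63 TPM in Cd replicates 1, 2 and 3 (log2 change 3.09, SE 0.158, adjusted p = 0.000194). BGIOSGA024922, with 2.48, 2.82 and 2.95 TPM in Fo+Cd replicates 1, 2 and 3, was listed at 0 in all Cd libraries and, like BGIOSGA004360, met the filter through Fo+Cd alone. The others named by the rule were BGIOSGA004358, BGIOSGA034857, BGIOSGA004360 and BGIOSGA007972, with log2 changes of 1.42, 1.25, 1.39 and 1.53. The pattern also caught a sphingosine-1-phosphate lyase and a bZIP factor, neither of them called. The count of 10 became 5 without any one Fo+Cd replicate.

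**Figure D4:**
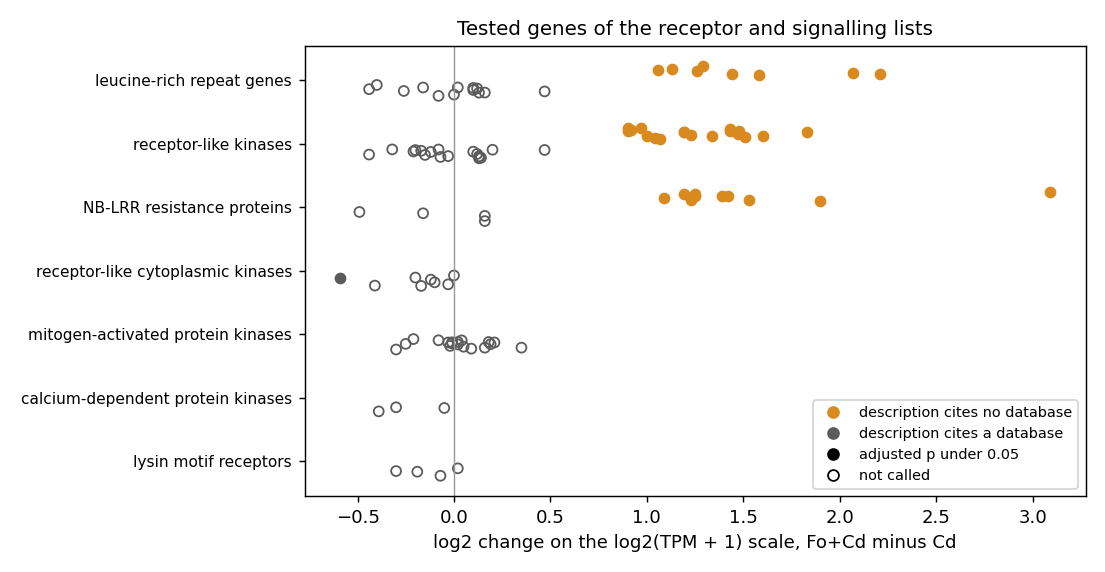
Log2 change of Fo+Cd minus Cd on the log2(TPM + 1) scale for tested genes of 7 lists, the induced pair left out; each point is a gene, filled where limma's adjusted p was under 0.05. The filled points right of 0 are all genes whose description cites no database, and the 1 filled point left of 0 is PBL15 at -0.59.

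Genes of known partners and downstream steps of BAK1 are given next. These lists are small, and with 2.45% of all tested features called in either direction their counts do not set them apart from other genes. They hold only genes with a matching description. A further 16550 tested gene models have no description, so members of these families may be missing from the lists. Of 6 tested genes found by names of growth and immunity receptors, 1 rose, a gene described as receptor kinase-like protein Xa21 (BGIOSGA015285) and without a source, at 2.17 ± 0.665 TPM in Fo+Cd and 0.13 ± 0.0458 TPM in Cd (adjusted p = 0.0189). This gene met the filter through Fo+Cd alone. Without Cd replicate 1 or 3 it was not called (adjusted p up to 0.0711). The names also caught genes not described as receptors, none of them called. These were an E3 ubiquitin ligase (BGIOSGA018946), a shaggy-related kinase (BGIOSGA023069) and a probable BRI1 kinase inhibitor (BGIOSGA029632). BGIOSGA027144 and BGIOSGA030052, described as brassinosteroid receptor kinases, were missed by the names and not called (limma adjusted p = 0.562 and 0.622). The brassinosteroid receptor BRI1 (BGIOSGA000907), named for its role beside BAK1, was at 26.2 TPM on average in both groups (adjusted p = 0.985). Of 8 receptor-like cytoplasmic kinases, which pass signals on from receptors inside the cell, 1 fell, against 0.723% of all tested features called lower. This was PBL15 (BGIOSGA012679), at 13.7 ± 1.09 TPM in Fo+Cd and 21.2 ± 0.646 TPM in Cd (adjusted p = 0.0254). That call was lost in each leave-one-out fit except the one without Cd replicate 2 (adjusted p up to 0.123).

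Against the same share of 2.45%, limma called 0 of 18 mitogen-activated protein kinases and their activators (2 with unadjusted p under 0.05; median log2 change 0.02). BGIOSGA017551, with 67.0 ± 0.305 TPM in Fo+Cd and 80.0 ± 4.87 TPM in Cd (adjusted p = 0.191), and BGIOSGA023548, with 61.9 ± 3.53 TPM in Fo+Cd and 53.2 ± 3.04 TPM in Cd (adjusted p = 0.295), had the smallest p. Of 3 calcium-dependent kinases 0 were called (1 with unadjusted p under 0.05; median -0.30), with BGIOSGA011765 at 87.1 ± 6.23 TPM in Fo+Cd and 108 ± 4.90 TPM in Cd (adjusted p = 0.156) and BGIOSGA014554 at -0.39. Of 4 genes with a lysin motif, which binds chitin and peptidoglycan, 0 were called and 0 had an unadjusted p under 0.05 (median -0.13). BGIOSGA022523 was at -0.30 and BGIOSGA013390, whose description names no receptor, at -0.19. The 1 polygalacturonase inhibitor, a secreted leucine-rich repeat protein that blocks fungal pectin-degrading enzymes (BGIOSGA024061), was at 74.9 ± 26.0 TPM in Fo+Cd and 79.3 ± 10.7 TPM in Cd (adjusted p = 0.85). The pattern for respiratory burst oxidases matched 1 such gene, oxidase B (BGIOSGA001663), at 44.3 TPM on average in Fo+Cd and 48.0 TPM in Cd (adjusted p = 0.696). Its other 3 matches were carbohydrate-related descriptions caught by the letters of the pattern.

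The features most like each gene over the 6 libraries were nearly the same for both. Likeness was Pearson's r of log2(TPM + 1), given as a description: with 2 groups far apart it reflects mainly the group difference and takes no account of its size. For BGIOSGA033924 the closest were BGIOSGA000093, which has no description, GGPPS1 (BGIOSGA024015, geranylgeranyl pyrophosphate synthase), BGIOSGA006215 (described as an ent-cassadiene hydroxylase), OsPR10 (BGIOSGA037569) and COMTL2 (BGIOSGA015753), with r of 0.9989 to 0.9996. For BGIOSGA033927 they were BGIOSGA000093, BGIOSGA006215, GGPPS1, COMTL2 and BGIOSGA002047 (0.9973 to 0.9993). Between the pair r was 0.999. BGIOSGA000093 differed by 0.21 on the log2 scale (adjusted p = 0.229), against 2.26 for GGPPS1 and 3.84 for COMTL2.

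With each group's mean subtracted, many features were closer to each gene than its partner was. The pair's r was 0.9495 over the 6 libraries, which placed BGIOSGA033927 at rank 175 for BGIOSGA033924 and BGIOSGA033924 at rank 250 for BGIOSGA033927 among the other tested features. The SD of log2(TPM + 1) for BGIOSGA033924 and BGIOSGA033927 was 0.72 and 0.67 in Cd, against 0.14 and 0.11 in Fo+Cd. Such r values thus rest mainly on the Cd libraries, where BGIOSGA033924 was at 0.13 to 2.03 TPM. The 5 closest to BGIOSGA033924 by this measure were BGIOSGA020029, BGIOSGA026233, BGIOSGA039612, BGIOSGA009937 and BGIOSGA013355, and those closest to BGIOSGA033927 were BGIOSGA002021, BGIOSGA001038, BGIOSGA010904, BGIOSGA030328 and BGIOSGA019730. None of these 10 was called (log2 change -0.96 to 0.58).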

How the data were processed

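Stranded, poly(A)-selected libraries were made from 1 µg of TRIzol-extracted root RNA, per the labels' protocols. The authors deposited TPM for 42031 features, with aligner, counting program and assembly not given in the sources used here. The deposited mean column of each group was not used. Values were taken as log2(TPM + 1), features at 1 TPM or above in 3 or more libraries entered the fit, and Fo+Cd was tested against Cd with limma 3.58.1 in R 4.3.3 (trend and robust, no covariate), with Benjamini-Hochberg adjustment over 21166 features and calls at an adjusted p under 0.05. The test was also run on simulated data. Fold changes on this scale understate changes near 1 TPM, and TPM keeps no depth, so no counting intervals were computed. Tables were handled with Python 3.11.15 and pandas 2.3.3.

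The pair of genes and all lists were chosen with earlier results of these data known. Lists were pattern matches to the deposited descriptions, with the pair left out, so genes without a description could not enter them. Named were, per list, called genes up to the 6 of smallest adjusted p or otherwise the 2 of smallest p, tested identifier neighbours, and the 5 features most correlated with each gene; exceptions are marked. Root markers other than OsLsi1 and OsNRAMP5 were found through their described function, since no description holds the gene names chosen. Of the features, 0 matched RefSeq by identifier. Alternatives were other pseudocounts (0.1 and 5), filters (none and 5 TPM), median-ratio scaling, plain limma, a replicate block, leaving out each library and, added after seeing the data, sourced descriptions alone.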

Additional observations from a re-analysis of the deposited data

How the results depend on the processing

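The log2 differences of both genes stayed positive under every alternative run. Counts of calls are given here where they moved by over 1.5 times; the remaining ones moved by less. The log2 difference of BGIOSGA033924 was 7.43 with a pseudocount of 0.1 and 4.62 with one of 5, and that of BGIOSGA033927 was 4.84 with a pseudocount of 5; such shifts follow from the scale at low TPM. Leaving out each library gave 137 to 367 features called higher and 26 to 359 called lower, against 365 and 153 with all libraries, and 96 were called lower with no filter. The same gave 1 to 7 leucine-rich repeat genes, 4 to 14 receptor-like kinases, 5 to 10 resistance proteins, 0 to 1 named receptors, 0 to 1 cytoplasmic kinases and 0 to 1 identifier neighbours. Fewer genes were tested without a Fo+Cd library, because the filter still asked for 3 libraries. With a filter of 5 TPM, which also tests fewer genes, the calls were 5 leucine-rich repeat genes, 8 receptor-like kinases, 4 resistance proteins and 0 named receptors. With sourced descriptions alone, each of these 4 lists had 0 calls. With no filter 1 photosynthesis transcript was called.

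Deviations from the group means correlated at -0.033, 0.085 and 0.073 between libraries of the same replicate number 1, 2 and 3. Between libraries of unlike number they correlated at -0.12 to 0.069. The values for replicates 2 and 3 were the highest, but all were small, and the numbers were not taken as pairs. A replicate block gave 239 features higher, 4 leucine-rich repeat genes, 6 receptor-like kinases, 0 named receptors and 0 cytoplasmic kinases called; the cause was not tested.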
